A study of Mus musculus with 40 samples.

Results

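The genes described here are the nuclear genes of oxidative phosphorylation, measured as messenger RNA in fetal mouse liver. They were taken by name from the deposited gene table: symbols beginning with Nduf followed by a, b, c, s or v, the genes Sdha, Sdhb, Sdhc, Sdhd and Cyc1, and symbols beginning with Uqcr, with Cox4 to Cox8, or with Atp5, without names marked as pseudogenes by -ps. Membership was thus chosen by name and selected on measured level, and no contrast between groups entered the rule. Of 103 rows that matched, 8 carried that mark and 2 failed the level rule, which asked for a normalized count of at least 10 in 5 or more libraries. This left 93 of the 20593 genes in the table. By the lists of subunits used here, 36 of the 93 belong to complex I, 4 to complex II, 9 to complex III, 15 to complex IV and 17 to complex V. The remaining 12 are not subunits: 8 are complex I assembly factors (Ndufaf1 to Ndufaf8), 2 are related proteins (Cox7a2l and Ndufa4l2), and 2 are processed pseudogenes (Ndufb4c and Ndufs6b). A name for the set that speaks of subunits alone therefore covers most of the members and not all of them.

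The fetuses were C57BL/6 mice at E18.5, shortly before birth, and the labels give 40 libraries of polyadenylated RNA, each from 1 liver, of which 2 went against that label and were left out. WDF dams ate a diet with 45% of its energy from fat and 10 mg/kg folic acid, WD dams 45% fat and 2 mg/kg, CDF dams 10% fat and 10 mg/kg, and CD dams 10% fat and 2 mg/kg. The design text presents the 45% fat diet as a model of gestational diabetes, and all dams were on their diet for 13 weeks before breeding and through pregnancy. Each diet had 5 female and 5 male fetuses. Which fetuses shared a mother is unknown, so littermates cannot be told from unrelated fetuses. The p-values here compare group means and treat each fetus as independent, although the diet was given to the dam. If fetuses of a group were littermates, these p-values may be too small.

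Oxidative phosphorylation is the chain of enzymes in the inner mitochondrial membrane that passes electrons from nutrients to oxygen and uses the proton gradient so made to form ATP. Complex I takes electrons from NADH, complex II from succinate, complex III hands them to cytochrome c, complex IV passes them to oxygen, and complex V, the ATP synthase, lets the protons back through. Complexes I, III, IV and V are built from nuclear subunits imported into the organelle together with subunits encoded by mitochondrial DNA, whereas complex II is wholly nuclear. The fetal liver is at this age both a maturing metabolic organ and a site of blood formation, and developing red cells carry mitochondria until a late step of their maturation.

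Since most members varied together across libraries, the sequences in front of their start sites are shown for members at both ends of that pattern. The RefSeq promoter table (build GRCm38.p6, from 250 bases before to 50 bases after the annotated start) held 74 of the 93 members. Letters of binding motifs named for factors known for mitochondrial genes were searched on both strands. The NRF1 letters, GCGC followed by any base and TGCGC, were found in 19 of the 74 promoters (25.7%), against 5.19% of 27025 genes with a promoter in the table. The ETS letters CCGGAAG, read by the factor also called NRF2 or GABP, were in 19 (25.7%) against 9.93% of all, and the YY1 letters ATGGCGGC in 7 (9.46%) against 2.61%. The TATA box letters TATAAA were in 6 (8.11%) against 15.7%. These are counts of letters in a window and not of bound sites. Likeness here is the Pearson correlation of a member with the mean of the other members over the 38 libraries, after the group means were removed. The members printed are the 3 that followed the others most closely (Atp5g3, Atp5o and Ndufa7) and, of the 3 that did so least, the pair with an entry (Sdha and Ndufaf1). In the lines below capitals mark the letters of a motif or of its reverse complement. They are the NRF1 letters in Atp5g3, Atp5o and, at 3 places, Sdha, the YY1 and TATA letters in Ndufa7, and the ETS letters in Ndufaf1.

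Atp5g3: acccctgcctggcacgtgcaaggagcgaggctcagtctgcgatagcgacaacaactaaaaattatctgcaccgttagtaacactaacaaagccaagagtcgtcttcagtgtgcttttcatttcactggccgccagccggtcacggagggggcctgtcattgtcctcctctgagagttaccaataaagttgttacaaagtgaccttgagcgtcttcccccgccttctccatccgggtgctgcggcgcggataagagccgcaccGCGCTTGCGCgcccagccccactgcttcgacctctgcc
Atp5o: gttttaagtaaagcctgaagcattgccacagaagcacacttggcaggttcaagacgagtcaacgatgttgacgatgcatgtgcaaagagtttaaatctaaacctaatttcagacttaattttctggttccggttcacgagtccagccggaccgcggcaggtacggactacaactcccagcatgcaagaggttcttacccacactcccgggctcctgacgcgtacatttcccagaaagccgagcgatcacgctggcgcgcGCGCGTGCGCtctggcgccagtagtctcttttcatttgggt
Ndufa7: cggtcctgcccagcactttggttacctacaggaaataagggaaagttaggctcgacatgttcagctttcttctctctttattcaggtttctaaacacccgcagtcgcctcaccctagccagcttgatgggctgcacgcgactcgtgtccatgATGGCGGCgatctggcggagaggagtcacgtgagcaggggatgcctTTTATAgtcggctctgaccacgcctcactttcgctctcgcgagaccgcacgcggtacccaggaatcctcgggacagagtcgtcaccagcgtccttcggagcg
Sdha: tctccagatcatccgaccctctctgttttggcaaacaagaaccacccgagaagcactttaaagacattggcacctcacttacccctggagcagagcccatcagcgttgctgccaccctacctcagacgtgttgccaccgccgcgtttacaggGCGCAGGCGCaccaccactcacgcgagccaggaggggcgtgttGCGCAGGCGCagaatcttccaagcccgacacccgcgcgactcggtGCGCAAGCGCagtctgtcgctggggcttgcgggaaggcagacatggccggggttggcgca
Ndufaf1: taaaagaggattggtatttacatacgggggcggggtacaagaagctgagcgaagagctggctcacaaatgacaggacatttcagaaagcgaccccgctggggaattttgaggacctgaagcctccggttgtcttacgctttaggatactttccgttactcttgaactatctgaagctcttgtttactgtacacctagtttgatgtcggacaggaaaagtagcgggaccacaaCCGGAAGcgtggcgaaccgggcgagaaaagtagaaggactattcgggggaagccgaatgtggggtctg

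The windows are chr2:73911277-73911576 on the minus strand for Atp5g3, chr16:91931581-91931880 on the minus strand for Atp5o and chr17:33824322-33824621 on the plus strand for Ndufa7, which has a second annotated start whose window overlaps it. Sdha lies at chr13:74350191-74350490 and Ndufaf1 at chr2:119662785-119663084, both on the minus strand. The gene with the lowest likeness to the others, Sdha, held the NRF1 letters at more places than Atp5g3 or Atp5o. Over all 74, the NRF1 letters were in front of members from Atp5g3 (likeness r = 0.99) to Sdha (r = -0.57).

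The deposited values are the authors' normalized counts, and in the 38 libraries used their sums per library, in units of 1e6, ran from 15 to 27.8. CD female replicate 4 and CDF female replicate 5 were left out by the rule that defined the set, because they were lung-like. Their albumin (Alb) values were 7708 and 5278 normalized counts, against 641907 to 1496610 in the 38 others, and their Sftpc values (surfactant protein C, a lung epithelial gene) were 101239 and 67014. Among the 38, the 12 hepatocyte markers summed to 2558690 to 3948440 and none of them was at 0 throughout. Another 6 libraries had Sftpc above 1000 normalized counts, namely CD female 5, CDF female 4, CDF female 2, WD female 4, WDF male 2 and CD male 5. Results are given without these where that changes them.

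Compared per kb of exon, the members of complexes IV and III were the most abundant. The median over a complex's members was 2002 ± 588 normalized counts per kb for complex IV, 1895 ± 432 for complex III, 1423 ± 461 for complex V, 868 ± 299 for complex I and 799 ± 71.8 for complex II (mean ± SD over 38 libraries). Complexes IV and III, and likewise complexes I and II, differed by less than this spread. The complex I assembly factors, which help build the enzyme and do not stay in it, stood far lower at 84.8 ± 22.2. With lengths of the longest transcript in place of all exons, the order of the 5 complexes was kept, at 2579 for IV, 2293 for III, 2208 for V, 1203 for I and 1154 for II.

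The 3 highest members per kb all belonged to complex IV. They were Cox6a1 (5804 normalized counts per kb), Cox4i1 (5451) and Cox8a (5406), the common isoforms of 3 small subunits that surround the catalytic core. By longest transcript the first places went to Cox4i1, Atp5b and Atp5g3, which encode the complex IV subunit 4, the catalytic beta subunit of ATP synthase and a copy of its membrane ring subunit c. The lowest were Cox4i2 (18.8 per kb), Cox6a2 (21.8) and the pseudogene Ndufs6b (25.8). Those 3 were also the members just inside the level rule, with a value of at least 10 in 18, 8 and 10 libraries. Just outside it were Cox8b, which reached 10 in 3 libraries, and Cox6c2, which did so in 0.

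Within complex I, the 7 core subunits that carry the electrons had a median level of 769 ± 261 normalized counts per kb and the 29 supernumerary subunits around them 942 ± 325. With lengths of the longest transcript this order was reversed, at 1228 ± 449 for the core and 1196 ± 393 for the supernumerary subunits. Ndufs1, the largest core subunit with its iron-sulfur clusters, was the lowest of the core at 203 per kb. In complex II, Sdhd, a membrane anchor, stood at 3339 per kb, well above the flavoprotein Sdha (867), the anchor Sdhc (715) and the iron-sulfur protein Sdhb (589). In complex V, Atp5b (4481 per kb) and Atp5a1 (4199), which together form the catalytic head, were the highest, while Atp5l, a subunit of the membrane part, was the lowest at 517. By longest transcript Atp5g3 (7701) lay between Atp5b (9910) and Atp5a1 (4923).

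Most members moved together from library to library. The level of the set in a library is given here as the median over the 93 members of the log2 deviation from each gene's own mean over 38 libraries. In WDF females it was -0.28, -0.27, 0.46, -0.46 and -0.01, and in WD females -0.04, 0.50, -0.26, 0.49 and 0.34. In CDF females it was -0.23, 0.34, -0.27 and 1.36, and in CD females -0.25, -0.54, -0.20 and 0.25. The values of each pair of female groups overlapped, and CDF female replicate 4 was the highest of all 38 libraries. In WDF males the level was 0.01, 0.43, 0.23, 0.07 and 0.06, and in WD males 0.21, 0.33, -0.08, -0.55 and -0.72. In CDF males it was 0.28, -0.21, -0.08, -0.45 and -0.48, and in CD males -0.34, -0.08, -0.04, 0.74 and -0.12. WDF males were the only group with all 5 libraries above 0, and CD male 4 stood far above the other CD males. In CDF female 4, 92 of 93 members were above their own mean, and in WD male 5, the lowest, 2 were. The 2 libraries left out stood at -1.49 for CD female 4 and -0.79 for CDF female 5.

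**Figure D1:**
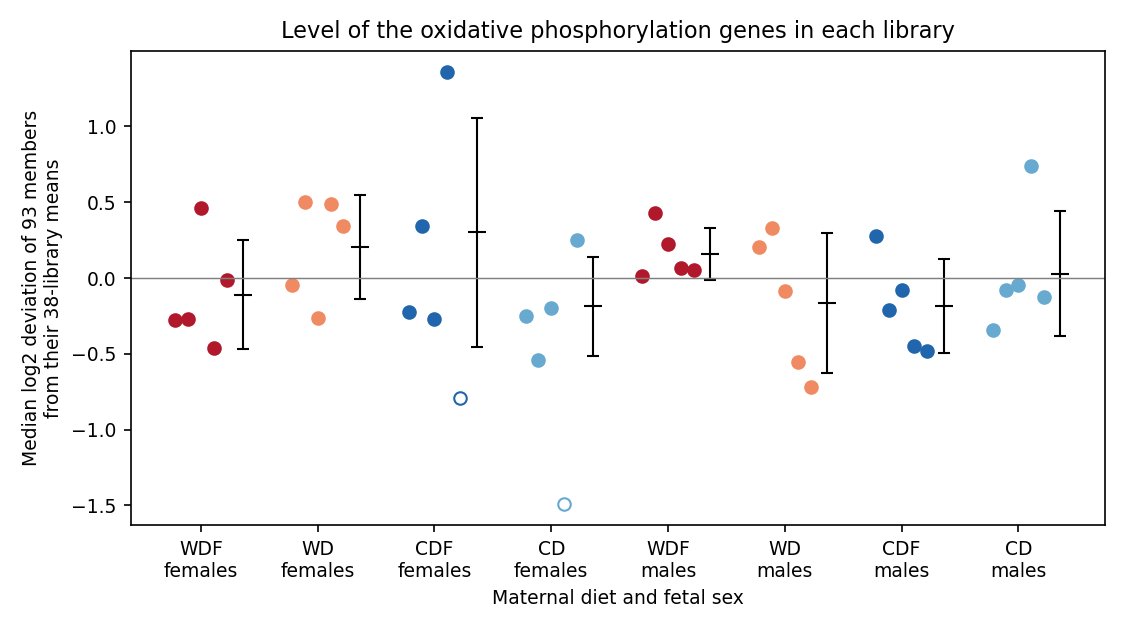
Level of the 93 oxidative phosphorylation genes in each library, as the median log2 deviation from each gene's mean over 38 libraries, for the 4 diets in females and males. Points are libraries, hollow points are the 2 left out, and the bar to the right of each group is the mean ± SD of its filled points; the groups overlap, and CDF female 4 stands highest at 1.36.

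How closely a member followed the set is given by the Pearson r between its log2 values and the mean of the other members over the 38 libraries, after the group means were removed. It is a description, since all genes of a library share that library's RNA and sequencing. The median over the 93 members was 0.95, and it was above 0.9 for 65 members and below 0.5 for 9. The highest were Atp5g3 (0.99), Atp5o (0.99), which encodes a stalk subunit of ATP synthase, and Ndufa7 (0.99), an accessory subunit of complex I. By complex the medians were 0.96 for complex I, 0.79 for complex II, 0.81 for complex III, 0.95 for complex IV and 0.98 for complex V, with 0.72 for the assembly factors.

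The closest follower shows the size of the movement. Atp5g3 had 5390, 5177, 8329, 4559 and 6912 normalized counts in WDF females, against 6298, 9335, 5281, 9069 and 7959 in WD females. It had 5428, 7738, 5236 and 14923 in CDF females, against 5183, 4436, 5084 and 7484 in CD females. In males it had 7145, 8995, 7349, 6611 and 7133 in WDF, 7262, 7922, 6017, 4204 and 3606 in WD, 7814, 5706, 5876, 4868 and 4438 in CDF, and 5021, 5976, 6166, 10690 and 5621 in CD. The highest value was thus again that of CDF female 4 and the lowest that of WD male 5, and every pair of groups overlapped. The member that ranged most among the abundant ones was Atp5e, the epsilon subunit of the ATP synthase head, with 18720 normalized counts in CDF female 4 and a coefficient of variation of 92.4% over the 38 libraries.

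A few members did not follow. Sdha, the subunit of complex II that oxidises succinate, had r = -0.57, Uqcrc2, a core protein of complex III, -0.18, and Ndufaf1, an assembly factor of complex I, -0.15. Atp5c1, the rotating gamma subunit of ATP synthase, had 0.19, and Cyc1, the cytochrome c1 of complex III, 0.34. Ndufaf4 (0.33), Ndufaf7 (0.46), Ndufa4l2 (0.41) and Cox6a2 (0.31) were the others below 0.5. Sdha had 3753, 3590, 3823, 4545 and 3689 normalized counts in WDF females, against 3871, 3787, 3711, 4113 and 3087 in WD females. It had 3408, 3884, 3554 and 1974 in CDF females, against 3862, 3482, 3338 and 2972 in CD females. In males it had 4216, 3603, 3175, 3493 and 3348 in WDF, 2993, 3473, 3615, 3945 and 3603 in WD, 3498, 4006, 3828, 3548 and 3646 in CDF, and 3528, 3753, 3558, 3345 and 3378 in CD. Its lowest value was in CDF female 4, the library in which its partners Sdhd (6776) and Sdhb (2230) had their highest. Over the 38 libraries Sdha varied by 11.6% (coefficient of variation), against 18.5% for both Sdhb and Sdhd and 15.9% for Sdhc.

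Length went with this difference among the members. Of the 91 members with an annotated coding sequence, the 66 under 600 nt had a median r of 0.96, the 12 from 600 to 1000 nt 0.90, and the 13 over 1000 nt 0.84, and across the 91 the correlation of r with log2 coding length was -0.40. Long coding length did not go with low r in every member, since Atp5b had 0.94 and Ndufs1, the longest, 0.84.

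**Figure D2:**
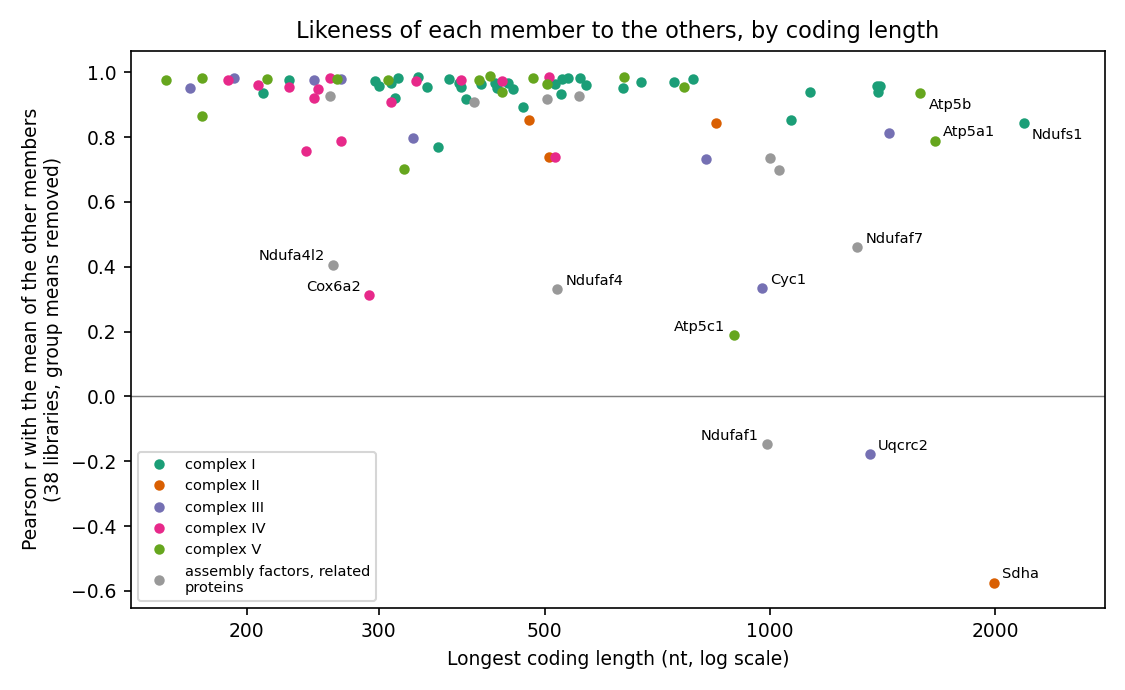
Pearson r of each member with the mean of the other members over 38 libraries, against its longest coding length in nt on a log scale, for the 91 members with a coding sequence, coloured by complex. The medians are 0.96 under 600 nt, 0.90 from 600 to 1000 nt and 0.84 over 1000 nt, and Sdha, Uqcrc2 and Ndufaf1 lie below 0.

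The movement was shared with genes of short transcripts outside the set. The members are not all short by longest transcript: that of Atp5l has 6310 nt, and its r with the other members was 0.98. Over the 38 libraries the level of the set had r = 0.98 with that of 86 cytosolic ribosomal protein genes, 0.97 with 78 mitochondrial ribosomal protein genes, and 0.98 with 1247 other genes whose longest transcript was under 1000 nt. Against 3166 genes with transcripts over 5000 nt it had r = -0.97, and with the library's sum of normalized counts 0.89. Lists of other genes of the same organelle were mixed. The 17 citric acid cycle genes had r = 0.18, the 29 assembly factors of complexes II to V 0.91, and the 13 regulators of mitochondrial biogenesis, such as Ppargc1a and Tfam, -0.59. These values are descriptions over libraries and carry no test. In bulk tissue, fewer cells of a type and less RNA per cell cannot be told apart.

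The 13 subunits encoded by mitochondrial DNA, the partners of these proteins in the finished complexes, did not follow. Their level had r = -0.40 with that of the nuclear members over 38 libraries. After removal of group means the single genes ranged from -0.75 for mt-Atp8 to 0.75 for mt-Nd3, and mt-Co1, the catalytic subunit of complex IV, had -0.73. In CDF female 4, where the nuclear set was highest (1.36), the mitochondrial set was at -0.55, and in WDF male 1 and WDF female 1, where it was highest (1.07 and 1.03), the nuclear set was at 0.01 and -0.28. Poly(A) selection of mitochondrial transcripts, which have short tails, was not tested as part of this difference.

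No member passed the threshold, an adjusted p of 0.05 over 15377 genes in limma, in any of the 14 comparisons fitted on the 38 libraries. limma-voom also called 0 of 93 in each. The comparisons below therefore give values of members, how many lay on each side of 0, and the count at an unadjusted p under 0.05 beside the share of all genes tested that reached it. All 8 pairwise comparisons reuse the same 8 groups, so their directions are not independent of each other. The spread of the set's level between libraries of a group was 0.42 (pooled SD, log2), against pairwise median differences of up to 0.46 in size.

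For higher folic acid under the western diet, the medians of the members had opposite signs in the sexes, a difference that was fitted as such only for the interaction given below. In WDF against WD females, 90 of 93 members were lower and the median log2 difference was -0.30. At an unadjusted p under 0.05, 0 members were lower and 0 higher, against 0.663% and 0.774% of all genes. The members with the smallest p were Ndufaf5, a complex I assembly factor (-0.42 ± 0.22 SE, adjusted p = 0.948 in limma), Ndufa9, a complex I accessory subunit (-0.30 ± 0.18, 0.948), and Atp5a1 (-0.19 ± 0.11, 0.948). In WDF against WD males, 87 of 93 were higher and the median was 0.33. There 2 members were higher at an unadjusted p under 0.05 (2.15% of the set) against 4.77% of all genes, and 0 lower against 4.04%. By complex the male medians were 0.42 for IV, 0.33 for I, 0.25 for III, 0.24 for V and 0.16 for II. In females they were -0.37 for I, -0.32 for V, -0.23 for IV, -0.17 for II and -0.12 for III. Without WD male 5 the male median was 0.19.

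Markers of megakaryocytes, the platelet-forming cells that the fetal liver holds, were higher in WDF than in WD males. The median log2 deviation of 10 such markers lay between 0.17 and 0.68 in WDF males, against -0.22 to -0.02 in WD males, so these groups did not overlap. Their summed level was 5545 to 7652 normalized counts in WDF males, against 4130 to 5169 in WD males, and none of the 10 was at 0 throughout. All 10 were above 0 in that comparison, with a median log2 difference of 0.54. Of them 5 were higher at an unadjusted p under 0.05, against 4.77% of all genes, while 0 passed the adjusted threshold in limma. In WDF against WD females their median was 0.02. It was 0.50 in WDF against CDF males, 0.34 in CDF against CD females and in WD against CD females, and 0.53 and -0.40 in the male and female interactions described below. Over the 38 libraries the level of these markers had r = 0.59 with that of the set. Markers of other cells had 0.65 (neutrophil), 0.55 (skeletal muscle), 0.47 (lung epithelium) and 0.28 (heart muscle). Erythroid markers had 0.28, macrophage markers 0.20 and hepatocyte markers -0.49. For all these other lists WDF and WD males overlapped. Some of their mean log2 deviations differed by more than that of megakaryocyte markers, with wide spread (± SD). They were 0.45 ± 2.82 against -1.001 ± 0.46 (lung epithelium), 0.49 ± 1.47 against -0.39 ± 0.75 (skeletal muscle) and -0.02 ± 1.01 against -0.84 ± 0.59 (heart muscle). Neutrophil, macrophage and hepatocyte means were also higher in WDF males, and the erythroid mean was lower (-0.01 against 0.18). The part of any of these cells in the results for the members was not tested.

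The member with the smallest p in males was Ndufa4l2, a relative of the complex IV subunit Ndufa4 that is known for its induction under low oxygen. It had 1424, 1617, 2177, 1257 and 1361 normalized counts in WDF males, against 931, 768, 794, 796 and 1081 in WD males. All 5 WDF males thus lay above all 5 WD males. It was the only member of the 93 whose groups did not overlap there, where 1.34% of all genes did the same in that direction. The means were 1567 ± 365 in WDF males and 874 ± 132 in WD males (SD, n = 5 each). The log2 difference was 0.83 ± 0.28 (SE, 95% interval 0.25 to 1.4), with an adjusted p of 0.456 over all genes in limma. The authors' deposited table of this comparison called Ndufa4l2, with a log2 fold change of 0.77 and an adjusted p of 0.0014. Of the genes with an adjusted p in the authors' deposited table, 1.48% were called, and Ndufa4l2 was the only member among them. With library weights in limma, under which 4.04% of all genes passed, the adjusted p was 0.0390 for a difference of 0.92, and over the other 25 alternatives it ranged from 0.166 to 1.00.

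In the other groups Ndufa4l2 showed no such separation. It had 862, 1395, 1432, 1169 and 1186 normalized counts in WDF females, against 1102, 1032, 1092, 1253 and 969 in WD females. It had 981, 1680, 666 and 1749 in CDF females, against 762, 741, 1466 and 1587 in CD females, and 751, 2300, 1038, 550 and 553 in CDF males, against 991, 1508, 1016, 1419 and 1359 in CD males. Its log2 difference was 0.13 in WDF against WD females, 0.14 in CDF against CD females and -0.48 in CDF against CD males, with adjusted p from 0.845 to 0.956 in limma. The difference of the folic acid effect between fat levels was 1.31 ± 0.40 in males (adjusted p = 0.286) and -0.00 ± 0.42 in females (0.997), and that between the sexes was -1.32 ± 0.58 (0.172). Its share of the summed level of Ndufa4l2 and Ndufa4 per kb ran from 17.4 to 52.0% over the 38 libraries, with a median of 32.8%.

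**Figure D3:**
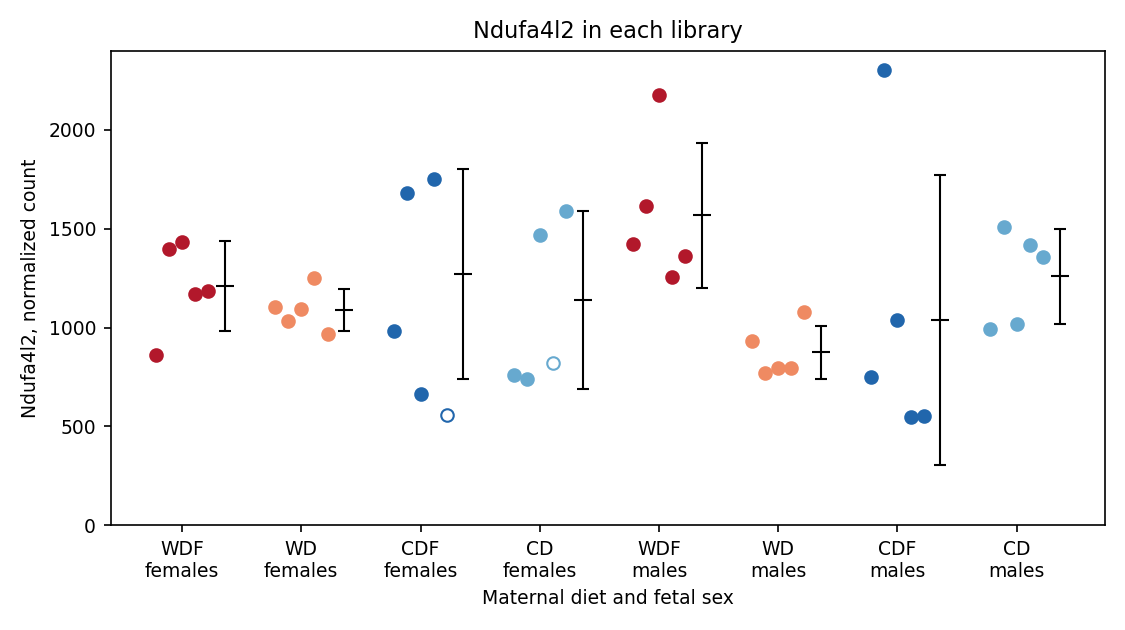
Ndufa4l2 in each library, in normalized counts from 0, for the 4 diets in females and males. Points are libraries, hollow points are the 2 left out, and bars are mean ± SD of the filled points; the 5 WDF males (1257 to 2177) lie above the 5 WD males (768 to 1081), and CDF male 2 stands apart at 2300.

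Next by p in the male comparison came Cox7a1, the heart and muscle isoform of a complex IV subunit (1.01 ± 0.46, adjusted p = 0.54), and Cox6c (0.48 ± 0.24, 0.569). On the lower side were Ndufaf1 (-0.13 ± 0.13, adjusted p = 0.768), Uqcrc2 (-0.09 ± 0.12, 0.819) and Atp5c1 (-0.08 ± 0.15, 0.883), 3 of the members that did not follow the set. In females the higher side held Cox6a2 (0.79 ± 0.88, 0.948), Sdha (0.06 ± 0.13, 0.953) and Ndufa4l2. The 13 mitochondrially encoded subunits had a median of 0.32 in WDF against WD females, where the nuclear members were lower, and 0.31 in males, where they were higher. Of these 13, 0 passed in either sex in limma, and 3 were higher at an unadjusted p under 0.05 in males, where 4.77% of all genes were.

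Under the control diet the medians had the reverse signs. In CDF against CD females, 85 of 93 members were higher, with a median log2 difference of 0.46. With an unadjusted p under 0.05, 6 were higher (6.45%) against 3.83% of all genes, and 0 lower against 3.95%. The smallest p were those of Ndufv1, which binds NADH in complex I (0.57 ± 0.25, adjusted p = 0.507 in limma), Uqcr11, a small subunit of complex III (0.83 ± 0.39, 0.507), and Ndufs6, a complex I subunit (0.78 ± 0.36, 0.507). Lower were Cox6a2 (-1.07 ± 0.99, 0.603), Sdha (-0.13 ± 0.14, 0.653) and Ndufaf4 (-0.14 ± 0.21, 0.745). The value rested on CDF female 4, without which the median was 0.12, and it was 0.09 in 32 libraries without those of Sftpc above 1000.

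In CDF against CD males, 79 of 93 were lower, with a median of -0.19. There 1 member was lower (1.08%) at an unadjusted p under 0.05 against 1.98% of all genes, and 0 higher against 1.5%. It was Ndufaf3, a complex I assembly factor (-0.51 ± 0.24, adjusted p = 0.908 in limma). Ndufa4l2 (-0.48 ± 0.28) and Cox4i2 (-1.03 ± 0.72) came next, and on the higher side Uqcrc2 (0.22 ± 0.12), Uqcrb, a subunit of complex III (0.12 ± 0.11), and Cyc1 (0.14 ± 0.14), each with adjusted p = 0.908. Without CD male 4 the median was -0.02, without CD male 1 -0.30, and without CDF male 1 or 5 it was -0.31 or -0.11.

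The western diet at the lower folic acid dose gave opposite signs in the sexes too. In WD against CD females, 86 of 93 members were higher, with a median of 0.38. At an unadjusted p under 0.05, 0 were higher against 3.06% of all genes, and 0 lower against 3.51%. The smallest p were those of Uqcrb (0.24 ± 0.12, adjusted p = 0.662 in limma), Ndufv3 (0.66 ± 0.34, 0.662), an accessory subunit of complex I, and Ndufs1 (0.26 ± 0.13, 0.662). Lower were Cox6a2 (-1.63 ± 0.94, 0.662), Uqcrc2 (-0.08 ± 0.13, 0.804) and Atp5c1 (-0.10 ± 0.16, 0.817). With all 40 libraries the median was 0.63, and with the mean level of 16 erythroid markers as a covariate it was 0.04. Those markers had a median log2 difference of 0.38 in the same comparison. Over the 38 libraries their level had r = 0.28 with that of the set. The covariate is itself a measure of the same libraries, so the part of erythroid cells in this difference was not tested.

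In WD against CD males, 77 of 93 were lower, with a median of -0.17. Of them 2 were lower (2.15%) at an unadjusted p under 0.05 against 3.30% of all genes, and 0 higher against 3.35%. The pair was Cox7a1 (-1.0 ± 0.46, adjusted p = 0.734 in limma) and Cox4i2 (-1.49 ± 0.72, 0.737), followed by Ndufa4l2 (-0.52 ± 0.28, 0.767). Higher were Uqcrc2 (0.22 ± 0.12, 0.768), Cyc1 (0.22 ± 0.14, 0.789) and Uqcrb (0.13 ± 0.11, 0.842). The direction was not stable, since without CD male 4 the median was 0.0056, and leaving out other single males gave -0.29 (CD 1 or WD 2), -0.28 (WD 1), -0.08 (WD 4) or -0.03 (WD 5). With library weights it was 0.02.

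At the higher dose the medians for the fat level again had opposite signs in the sexes, each the reverse of that at the lower dose. In WDF against CDF females, 89 of 93 members were lower, with a median of -0.41. By unadjusted p under 0.05, 4 were lower (4.30%) against 3.91% of all genes and 1 higher (1.08%) against 4.23%. Sdha was the higher one (0.32 ± 0.13, adjusted p = 0.532 in limma). Ndufaf5 (-0.53 ± 0.24), Ndufb6 (-0.51 ± 0.23) and Ndufb2 (-0.57 ± 0.27), the last pair accessory subunits of complex I, had adjusted p = 0.532. Ndufaf5 had 73.4, 69.9, 68.8, 64.1 and 74.7 normalized counts in WDF females, against 79.9, 86.4, 82.1 and 187 in CDF females. It was the only member whose groups did not overlap there, as 0.488% of all genes did in that direction. Without CDF female 4 the median of the set was -0.06, in 32 libraries it was 0.12, and with all 40 it was -0.21.

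In WDF against CDF males, 88 of 93 were higher, with a median of 0.37, and this sign held without each library in turn (0.28 to 0.49). At an unadjusted p under 0.05, 1 was higher (1.08%) against 3.43% of all genes, and 0 lower against 3.47%. It was Ndufa4l2 (0.79 ± 0.28, adjusted p = 0.606 in limma), followed by Cox6c (0.47 ± 0.24, 0.711) and Uqcrfs1, the Rieske protein of complex III (0.26 ± 0.13, 0.713). Lower were Ndufaf1 (-0.21 ± 0.13, 0.73), Uqcrc2 (-0.09 ± 0.12, 0.83) and Sdha (-0.06 ± 0.13, 0.887).

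**Figure D4:**
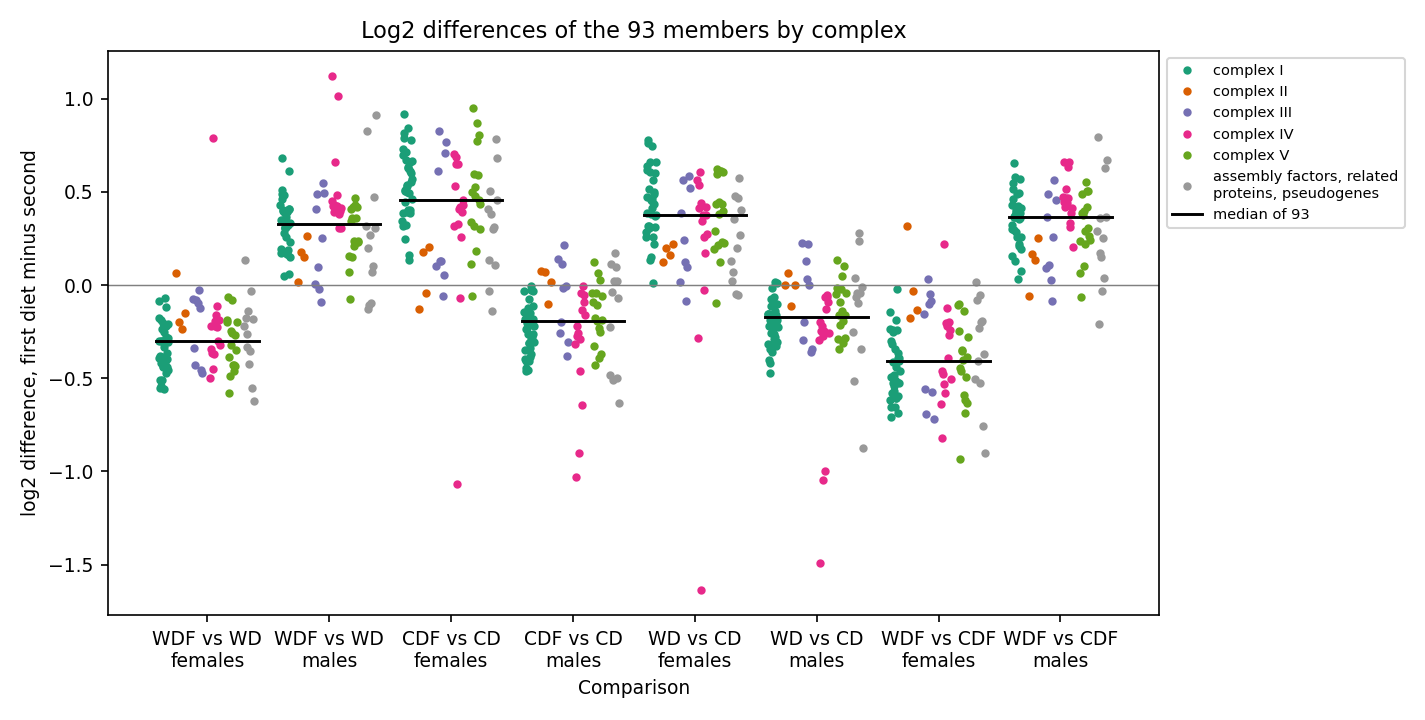
Log2 differences of the 93 members in 8 pairwise comparisons, with the first-named diet minus the second, coloured by complex; the black line is the median of the 93. Medians lie between -0.41 (WDF against CDF females) and 0.46 (CDF against CD females), females and males have opposite signs in each of the 4 diet pairs, and 0 of the members passed the threshold.

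The interaction of fat and folic acid had opposite signs in the sexes, and the difference between the sexes was itself fitted. In females the folic acid effect under the western diet minus that under the control diet had a median of -0.73 over the members, with 90 of 93 below 0. At an unadjusted p under 0.05, 43 members were lower (46.2%) against 7.86% of all genes, and 0 were higher against 5.03%. No member passed the adjusted threshold. The smallest p were those of Ndufa3 (-1.47 ± 0.58, adjusted p = 0.367 in limma), Ndufb11 (-1.15 ± 0.47, 0.367) and Uqcr11 (-1.26 ± 0.52, 0.367), small subunits of complexes I and III. Above 0 were Cox6a2 (1.85 ± 1.32, 0.434), Sdha (0.20 ± 0.19, 0.556) and Uqcrc2 (0.04 ± 0.18, 0.922). The 86 cytosolic ribosomal protein genes had a median of -0.82 and 49 of them were lower at an unadjusted p under 0.05, while the 13 mitochondrially encoded subunits had 0.85. Without CDF female 4 the median of the members was -0.41, and in 32 libraries it was -0.31.

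In males the same interaction had a median of 0.54, with 84 of 93 above 0. At an unadjusted p under 0.05, 4 were higher (4.30%) against 6.10% of all genes, and 0 lower against 6.21%. They included Ndufa4l2, described above, Cox7a1 (1.65 ± 0.65, adjusted p = 0.356 in limma) and the pseudogene Ndufs6b (1.54 ± 0.68, 0.387). Below 0 were Uqcrc2 (-0.31 ± 0.17, 0.439), Ndufaf1 (-0.24 ± 0.19, 0.549) and Atp5c1 (-0.20 ± 0.21, 0.655). Without CD male 4 the median was 0.35. The female minus male difference of the interaction had a median of -1.23 over the members, with 64 lower at an unadjusted p under 0.05 (68.8%) against 13.3% of all genes and 0 higher against 12.2%. The smallest p were those of Ndufa3 (-2.44 ± 0.80), Ndufaf8 (-2.31 ± 0.78) and Ndufa5 (-2.49 ± 0.84), each with adjusted p = 0.167 in limma, and above 0 were Uqcrc2 (0.34 ± 0.25, 0.36), Sdha (0.26 ± 0.26, 0.516) and Atp5c1 (0.19 ± 0.31, 0.687). It was 0.0065% of all genes that passed the adjusted threshold there, and this comparison was added after the data had been seen.

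These differences moved with the contrast of short against long transcripts. The 1247 genes of short transcripts outside the set had medians of -0.60 in the female and 0.37 in the male interaction, and the 3166 long genes 0.41 and -0.15. With each library's short minus long score as a covariate, which was chosen after the data had been seen and over the 38 libraries had r = 0.97 with the set's level, the medians of the members were -0.06 in females, 0.13 in males and -0.16 for their difference. In the 8 pairwise comparisons they lay between -0.08 and 0.13. With that covariate 0 members passed the adjusted threshold in any comparison, and at an unadjusted p under 0.05 the female interaction had 0 members on either side, against 0.826% of all genes lower and 1.11% higher. For the female minus male difference of the interaction, 4 members were lower with the covariate (4.30%) against 2.27% of all genes, in place of 64 without it. In the male interaction 8 were higher (8.60%) against 5.96%. In WDF against WD males, 79 of 93 members stayed above 0 with the covariate, and 14 were higher at an unadjusted p under 0.05 (15.1%) against 6.50% of all genes. In WD against CD females 77 were above 0 and 18 were higher (19.4%) against 4.21%. The covariate is itself a measure of the same libraries, so values with it are a description of what is left and not an estimate free of that movement.

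Averaged over the other factors, the medians of the members lay near 0. Higher against lower folic acid, averaged over the 2 fat levels and both sexes, had a median of 0.07 over the members, and 0 had an unadjusted p under 0.05 against 1.05% of all genes higher and 1.28% lower. Atp5j, a stalk subunit of ATP synthase (0.10 ± 0.07, adjusted p = 1.00 in limma), Cox6c (0.16 ± 0.12) and Cox8a (0.14 ± 0.11) had the smallest p above 0, and Ndufaf3 (-0.14 ± 0.12), Ndufaf1 (-0.06 ± 0.07) and Sdhc (-0.06 ± 0.08) below it. The median turned to -0.01 without CDF female 4, to -0.03 in 32 libraries and to -0.04 with library weights.

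The western diet, averaged the same way, had a median of 0.04, and 1 member was higher at an unadjusted p under 0.05 (1.08%) against 3.25% of all genes, with 0 lower against 4.25%. It was Uqcrb (0.13 ± 0.06, adjusted p = 0.621 in limma), which ranged from 1083 to 1695 normalized counts over the 38 libraries. Ndufs1 (0.12 ± 0.06, 0.765) and Sdha (0.09 ± 0.07, 0.868) followed, and on the lower side Cox4i2 (-0.48 ± 0.37, 0.912), Cox6a2 (-0.49 ± 0.45, 0.959) and Ndufc2 (-0.07 ± 0.07, 0.968). Over all genes 0.0455% passed the adjusted threshold. With library weights 7 members passed (7.53%), against 3.16% of all genes under the same weights: Uqcrb, Ndufs1, Ndufaf3, Cox8a, Sdhd, Ndufa13 and Cox6c, with log2 differences of 0.18 to 0.39 and adjusted p from 0.0270 to 0.0487. For Uqcrb and Ndufs1 the adjusted p over the other alternatives ran from 0.112 to 0.912. The median turned to -0.0054 without CDF female 1 and to -0.0008 without CDF female 3, and with the erythroid covariate it was -0.16. With the short minus long score as a covariate it was 0.06, and 18 members were higher at an unadjusted p under 0.05 (19.4%) against 6.80% of all genes, with 0 lower against 6.47%.

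Females against males, averaged over the 4 diets, had a median of 0.08, with 90 of 93 members above 0. At an unadjusted p under 0.05, 3 were higher (3.23%) against 1.98% of all genes, and 0 lower against 1.11%. They were Ndufaf7 (0.19 ± 0.07, adjusted p = 0.999 in limma), which modifies a core subunit of complex I, Cox7a1 (0.59 ± 0.24, 0.999) and Cox6a2 (1.01 ± 0.45, 0.999). Below 0 were Sdha (-0.03 ± 0.07), Ndufs1 (-0.01 ± 0.06) and Ndufab1, the mitochondrial acyl carrier protein (-0.00 ± 0.11). Over all genes 0.0585% passed the adjusted threshold, and 0 of the members did. The median was 0.0017 without CDF female 4, -0.09 in 32 libraries, -0.03 with all 40 and -0.01 with library weights. With the short minus long covariate it was -0.07, and the counts at an unadjusted p under 0.05 lay mostly on the other side, with 30 members lower (32.3%) against 7.14% of all genes and 2 higher (2.15%) against 4.72%.

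The authors' deposited tables called 0 members in CDF against CD females (0.0216% of all genes), 0 in CDF against CD males (0.0437%), 0 in WDF against WD females (0.0%) and, as given above, 1 in WDF against WD males. In the authors' deposited table for WDF against WD males, 85 of 93 members had a positive log2 fold change, with a median of 0.06, and 7 were higher at an unadjusted p under 0.05 (7.53%) against 5.67% of all genes. Beside Ndufa4l2 these were Cox7a1, Ndufs7, Cox8a, Cox6c, Ndufa13 and Cox7a2l. In the authors' deposited table for CDF against CD females, 83 were positive. There 16 were higher at an unadjusted p under 0.05 (17.2%) against 4.18% of all genes. That table does not name its libraries, so these counts need not rest on the libraries used here. Whether the lung-like libraries left out here were in it was not tested. Its mean for Cox6a2 was 49.5 normalized counts, where the lung-like CDF female had 582 and CD female 5, kept here, 311. That mean alone does not show which libraries it rests on. The fold changes in that table and in those of CDF against CD males and WDF against WD females were close to 0, with the largest member at 0.0134 on the log2 scale, so their sizes cannot be set beside the differences given here.

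Several members are isoforms that other tissues use in place of a common subunit. Cox6a2, the heart and skeletal muscle form of Cox6a1, had 76.4, 3.74, 5.31, 4.69 and 2.63 normalized counts in WDF females, 3.61, 0.956, 1.84, 13.4 and 7.48 in WD females, 1.45, 10.1, 3.42 and 24.1 in CDF females, and 3.12, 5.86, 5.58 and 311 in CD females. In the 20 males it ran from 0 to 12.0. CD female 5 and WDF female 1 thus stood apart. The same pair had the highest sums of the heart markers among the 38 libraries, at 28516 and 8198 normalized counts. Not every heart marker ranked them so: Myl7 was 948 in CD female 5, but 129 in CDF female 4 and 114 in WDF female 1. Tnnt2, the cardiac troponin T, had 1042 normalized counts in WDF female 1 and 3449 in CD female 5, against 11.9 to 244 in the other 36, and Myh6, a cardiac myosin, 737 and 2920 against 0 to 114. The 11 heart markers found in the table summed to 80.7 to 28516 over the 38 libraries and to 87188 in CDF female 5, a library left out, where Cox6a2 was 582. Their part in the Cox6a2 differences between groups was not tested beyond leaving libraries out: without CD female 5 the CDF against CD difference in females was 0.38, and without WDF female 1 the WDF against WD difference in females was -0.0038.

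**Figure D5:**
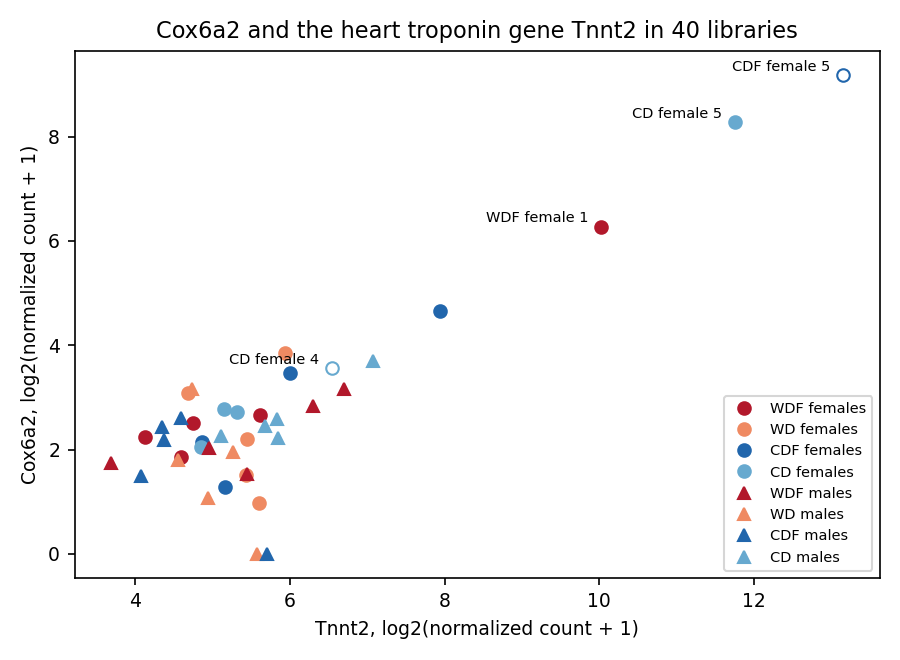
Cox6a2 against Tnnt2 in all 40 libraries, both as log2(normalized count + 1), with circles for females, triangles for males and hollow symbols for the 2 libraries left out. CDF female 5, CD female 5 and WDF female 1 are highest on both axes, and the males lie at or below 12.0 normalized counts of Cox6a2.

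Cox7a1, the muscle form of Cox7a2, was also highest in CD female 5, but in WDF female 1 it lay within the range of the other libraries. It had 92.0 normalized counts in WDF female 1 and 179 in CD female 5, against 11.1 to 163 in the other 36 libraries. Cox8b, the muscle form of Cox8a and just outside the level rule, had 49.8 in WDF female 1 and 133 in CD female 5, against 0 to 5.42 elsewhere. Per kb, Cox6a2 made up 2.82% of the sum of Cox6a2 and Cox6a1 in WDF female 1 and 7.09% in CD female 5, against a median of 0.128% over the 38 libraries. Cox7a1 made up 7.45 and 11.2% of the sum with Cox7a2 in these libraries, against a median of 3.97%.

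Cox4i2, the isoform of subunit 4 known from lung and from cells under low oxygen, was also highest in CD female 5, and CDF female 4 came second. It had 98.5 normalized counts in CD female 5 and 83.1 in CDF female 4, against 1.11 to 33.1 in the other 36 libraries, and 243 and 189 in the lung-like CD female 4 and CDF female 5. Those are the libraries of highest Sftpc, at 30176 and 24797 normalized counts, against 0 to 5978 in the other 36 and 101239 and 67014 in the lung-like pair. Among the males Cox4i2 was 30.8 in WDF male 2, the male of highest Sftpc (5978), and 33.1 in WDF male 3, where Sftpc was 0. With library weights in limma, Cox4i2 passed in WDF against WD males (log2 difference 1.89, adjusted p = 0.0468) and in the male interaction (2.93, 0.0371). There 4.04% and 2.58% of all genes passed with those weights. The values of Cox4i2 in males were low, at no more than 33.1 normalized counts.

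Cox6b2, known as the testis form of Cox6b1, was present in all libraries, at 174 to 918 normalized counts, and made up a median of 6.42% of the sum with Cox6b1 per kb, or 10.2% by longest transcript. Unlike Cox6a2 it followed the set, with r = 0.91. The 3 genes of ATP synthase subunit c encode the same mature protein, and Atp5g3 was the highest: per kb, Atp5g1 made up a median of 17.6% of the sum of Atp5g1 and Atp5g3 (8.11% when the length was that of the longest transcript), and Atp5g2 19.8% of that of Atp5g2 and Atp5g3. The processed pseudogene Ndufb4c held a median of 91.1% of the sum with Ndufb4 per kb, and Ndufs6b 2.19% of that with Ndufs6. Reads of such near-identical copies can be split either way by the counting, so the levels of Ndufb4, Ndufb4c, Ndufs6 and Ndufs6b are uncertain, while Ndufb4 and Ndufb4c alike followed the set (0.96 and 0.95).

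Among the 8 complex I assembly factors the levels ran from 48.4 normalized counts per kb for Ndufaf5 to 266 for Ndufaf8. Ndufaf1, which binds an early intermediate of the membrane arm, was at 179 per kb, with Ndufaf6 at 137, Ndufaf3 at 90.7, Ndufaf4 at 73.4, Ndufaf2 at 68.5 and Ndufaf7 at 63.1. They were divided in how they moved. Ndufaf2, Ndufaf3 and Ndufaf8 followed the set (0.92, 0.93 and 0.93), Ndufaf5 and Ndufaf6 less closely (0.70 and 0.73), and Ndufaf1, Ndufaf4 and Ndufaf7 not (-0.15, 0.33 and 0.46). Among the 29 assembly factors of the other complexes the median was 0.43, with a range of -0.87 to 0.97, and among all 15284 other tested genes it was -0.04. The 17 citric acid cycle genes had a median of 0.00 and ranged from -0.73 to 0.91.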

How the data were processed

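Polyadenylated RNA of 40 fetal livers was sequenced as directional paired-end libraries of 43 nt reads, per the labels' protocols. The submitters' processing notes name Trimmomatic 0.39, STAR 2.7.3a, Salmon 1.3.0, DESeq2 1.24 and mm10, with no role or order stated in the labels. The authors deposited 1 table of normalized counts, a signal that is no longer whole reads, and 4 comparison tables whose log2 fold changes and p-values are the authors' own. Whole reads could not be recovered, since 30.0 to 65.5% of steps between low values were whole within 0.1, so a count test was not used and the depth in reads is unknown. One column that carries no sex letter was assigned to CDF female 1 by elimination.

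The 15377 genes that reached 10 in 5 libraries or more were fitted as log2(value + 1) with limma 3.58.1 in R 4.3.3, with trend and robust variance, 1 mean for each of 8 groups, and Benjamini-Hochberg adjustment over all genes. Fold changes on this scale understate changes of low genes. Named genes were members past the threshold and otherwise the 3 of smallest p in each direction, with the tissue isoforms, assembly factors, complex II, the highest and lowest levels and the likeness extremes named by role. A few others were named after their values were seen. Tables and figures used Python 3.11.15, pandas 2.3.3, numpy 2.4.6, scipy 1.17.1 and matplotlib 3.10.9, and the fit was tested on simulated data. The alternatives were other library sets, scalings, pseudocounts and filters, limma-voom, a replicate block, library weights, an erythroid covariate and leaving out each library. The members and gene lists were chosen with earlier results of these data known. No 2 libraries were alike beyond a correlation of 0.982.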

Additional observations from a re-analysis of the deposited data

Results flagged for a closer look

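In 12 of 56 groups of 4 or 5 libraries looked at, the highest library stood far from the rest of its group. Chance flags about 1 in 20 independent groups. These groups share libraries, and their genes were named partly from their values, so the count cannot be set against that rate. The level of the members in CD male 4 was 0.74, against -0.34 to -0.04 in the other CD males, and Atp5g3 there was 10690 normalized counts, against 5021 to 6166. In the same library Cox6a2 was 12.0, against 3.66 to 4.99, and Cox4i2 27.7, against 8.97 to 14. Sdha was 4545 in WDF female 4, against 3590 to 3823 in the other WDF females. Ndufa4l2 was 2300 in CDF male 2, against 550 to 1038 in the other CDF males.

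The tissue isoforms account for the remaining groups. Cox6a2 was 76.4 normalized counts in WDF female 1, against 2.63 to 5.31 in the other WDF females, and 311 in CD female 5, against 3.12 to 5.86 in the other CD females. Cox7a1 was 179 in CD female 5, against 36.9 to 50.9. Cox4i2 was 83.1 in CDF female 4, against 8.49 to 13.4, 98.5 in CD female 5, against 3.25 to 9.97, and 19.6 in WD male 2, against 1.11 to 5.00.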

How the results depend on the processing

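No member passed the threshold in limma under any alternative except library weights, which called 2 members in WDF against WD males (4.04% of all genes), 2 in the male interaction (2.58%) and 7 for the western diet averaged over strata (3.16%). Between diets of 1 sex, same-numbered libraries showed no steady likeness (correlation of deviations from group means -0.54 to 0.27, 12 of 36 pairs above 0.1). Same-numbered females and males of 1 diet were not compared, so whether a number marks a shared mother was not tested. With the replicate block 0 members were called, and the median was 0.33 in WDF against WD males. The depth in reads is unknown, so no floor can be given for low values. The causes of the changes below were not tested.

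The median of the members was 0.12 in WDF against CDF females and -0.78 for the female minus male interaction in 32 libraries, and the last was -0.76 without CDF female 4 and CD male 4. With the short minus long covariate it was -0.0231 in CDF against CD females, 0.0603 in WDF against CDF females, -0.0606 in the female interaction and -0.16 for its difference from males. Levels per kb by longest transcript were 1203 for complex I, 1154 for complex II and 2208 for complex V. Leaving out 1 library at a time gave medians of 0.0017 to 0.13 for females against males, -0.01 to 0.12 for folic acid and -0.0054 to 0.12 for the western diet.

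Small differences changed sign. With all 40 libraries, CDF against CD females gave Sdha 0.0698, Ndufaf4 0.0905 and Cox6a2 0.27, WD against CD females Atp5c1 0.12 and Uqcrc2 0.12, WDF against CDF females Cox6a2 -1.04, and the female interaction Sdha -0.0054 and Uqcrc2 -0.14. In 32 libraries, Ndufb2 was 0.0414 in WDF against CDF females, Ndufc2 0.0203 for the western diet, Uqcrc2 -0.0318 in the female interaction and Sdha 0.0199 for sex. Ndufab1 for sex was 0.0052 by upper-quartile scaling and 0.0056 with the erythroid covariate. Library weights gave Atp5c1 0.0011 and Uqcrc2 0.0039 in WD against CD females, Atp5c1 0.0166 in the male interaction and Sdha 0.0289 for sex. The erythroid covariate gave Uqcrc2 0.0446 in WD against CD females and -0.0307 in the female interaction, and Uqcrb -0.0306 in WDF against CDF females. With the short minus long covariate, Sdha was -0.0043 in WDF against WD females, 0.0205 in CDF against CD females, 0.0146 in WDF against CDF males, -0.0248 in the female interaction, 0.0221 for sex and -0.0818 for the interaction difference, and Uqcrc2 was -0.0138 in the female interaction. Without CDF female 4 and CD male 4, Sdha was 0.087 in CDF against CD females, -0.0225 in the female interaction and 0.0244 for sex.

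Leaving out 1 library at a time, Sdha ranged from -0.24 to 0.087 in CDF against CD females, -0.0005 to 0.10 in WDF against WD females, -0.0225 to 0.30 in the female interaction and -0.0526 to 0.0287 for sex. Cox6a2 ranged from -1.70 to 0.38 in CDF against CD females, -0.57 to 0.81 in WDF against CDF females and -0.0038 to 1.17 in WDF against WD females. Uqcrc2 ranged from -0.13 to 0.0139 in WD against CD females and -0.062 to 0.10 in the female interaction, Uqcrb from -0.0604 to 0.12 in WDF against CDF females, Ndufab1 from -0.0622 to 0.0342 and Ndufs1 from -0.041 to 0.0093 for sex.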
